A study of Drosophila melanogaster with 4 samples.

Results

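The genes described here are 29 members of the fly immune pathways and of the serpin and Turandot families, out of 6793 named genes on a 12k cDNA array of Drosophila melanogaster. They were taken by symbol alone: every gene measured by spots with a single symbol that begins with PGRP-, Tep, Nim, Tot, Spn, Toll-, Att, Cec or Bom, or that names a listed part of the Toll, Imd or JAK/STAT pathways or an antimicrobial peptide. The symbols found belong to 2 peptidoglycan recognition proteins, 8 genes of the Toll pathway, 4 secreted effectors, 5 opsonin or phagocytosis genes, 8 further serpins and 2 Turandot genes. Of that list, the Attacin and Cecropin genes, the core Imd and JAK/STAT genes, and cact, Mtk, Def and Dro are not analysed here. They were not matched to a spot with a single symbol. The members were covered by 64 spots, 2 each for 26 genes and 4 each for BomBc2, NimC1 and Tl.

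The flies were whole adult males, reared at 25 °C, of strain dp cn bw cl. Their age was 6 to 7 days from eclosion. Both groups carry the strain's marker alleles. Cold-shocked males spent 2 h at 0 ± 0.5 °C and recovered for 30 min at 25 °C before freezing, and co-reared untreated males stayed at 25 °C. Each of the 3 arrays held 1 of the independent pairs, with cold-shocked RNA in Cy5 and untreated RNA in Cy3, and 1 pilot array of a 7k design had the dyes reversed. The deposited value of a spot is a log ratio of the channels, read here as log2, so that 0 means equal signal in both channels. A value above 0 probably stands for more RNA in the cold-shocked sample, since the usual conventions (red over green, second channel over first, treatment over control) coincide on the 12k arrays. No file used here states the direction. All 12k arrays share a dye orientation, so that dye and treatment cannot be told apart, and the number of flies pooled in a sample is not given in the sources used here.

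Flies answer infection through a pair of NF-κB pathways. In the Toll pathway, proteases of the haemolymph cut the cytokine Spätzle, which binds the receptor Toll, and the adaptor Tube and the kinase Pelle then free the transcription factors Dorsal and Dif. Serpins are protease inhibitors that hold such cascades in check. The Imd pathway responds to bacterial peptidoglycan sensed by PGRP receptors, Nimrod and thioester proteins act in phagocytosis and opsonisation, and Turandot genes encode small secreted proteins made by the fat body under several stresses. In whole flies many immune transcripts come from fat body, haemocytes and gut, though not all of the genes here are confined to these tissues. In such samples fewer cells of a type and less RNA per cell cannot be told apart.

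The ratios of the 29 genes lay close to 0 on the whole, with nec at the top and NimC4 at the bottom. The serpin gene nec averaged 1.62-fold higher in the likely cold-shocked channel and the phagocytosis receptor gene NimC4 1.81-fold lower. Of the 29 means 15 were above 0 and 14 below, with a median of 0.0009 on the log2 scale, beside a median of −0.05 and 2924 of 6793 means above 0 for all named genes. The median absolute mean was 0.19 for the members and 0.18 for all named genes. In the limma fit to 19325 features 0 members had an adjusted p under 0.05, and 0% of features did. At an unadjusted p of 0.05 the limma fit held 2 members, nec and NimC4, which is 6.90% of the members beside 3.49% of named genes and 4.78% of all features. The 95% interval of a member's mean reached a median of 0.57 to either side, about as wide as the 0.57 for all named genes, so a difference of about 1.5-fold was within the interval of a typical member. In simulated data of this size the same test recovered 0% of changes of 2-fold.

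**Figure D1:**
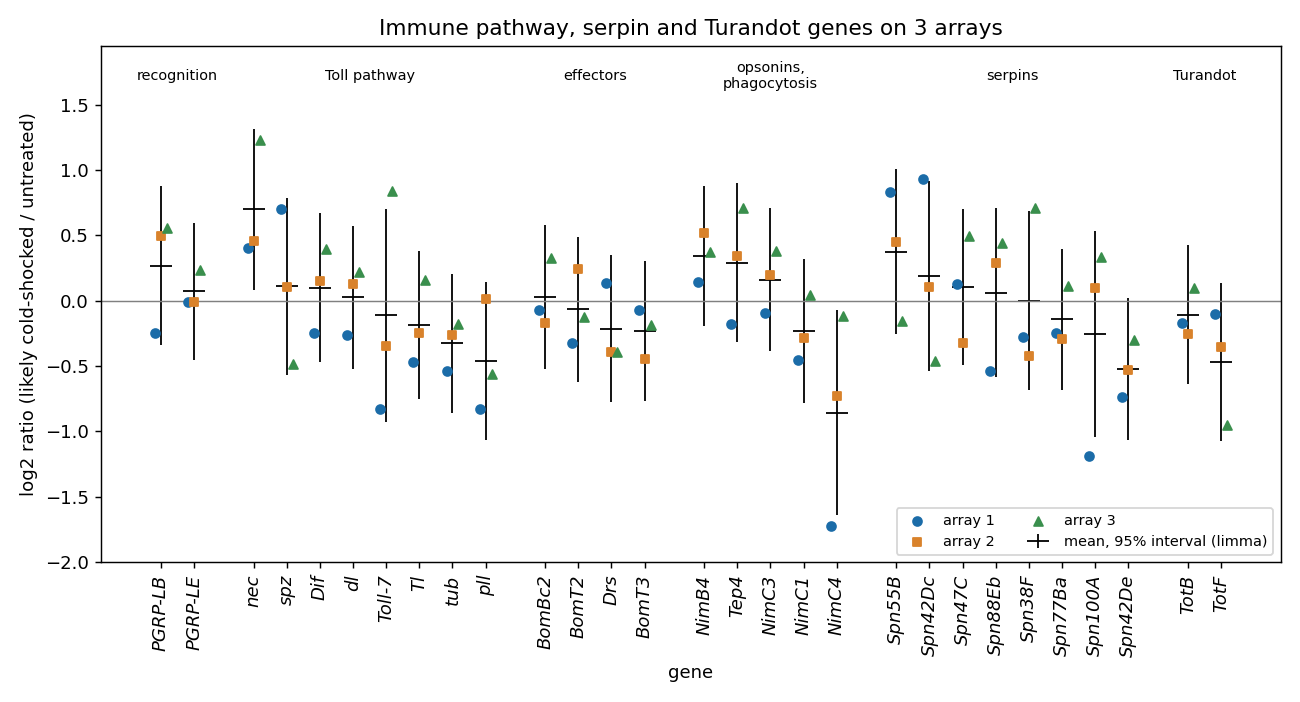
Log2 ratio (y axis) of each of the 29 genes (x axis, grouped by role) on arrays 1 to 3 (circle, square, triangle), with the mean and its 95% interval from the limma fit (black). The interval of nec, from 0.08 to 1.31, and that of NimC4, from −1.64 to −0.07, do not cross 0 before adjustment for the number of features, and those of the other 27 genes do.

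Of the 29 genes, 2 were above 0 on all 3 arrays, nec and NimB4, and 5 were below 0 on all 3, BomT3, NimC4, Spn42De, TotF and tub. These shares of 6.90% and 17.2% stand beside 12.5% and 16.9% of all named genes. A ratio past 1.5-fold in one direction on all 3 arrays was found for 0 members, where 0.0736% of named genes had one above and 0.147% below. The mean alone was past 1.5-fold for nec and NimC4, 6.90% of the members, beside 6.42% of named genes. By these counts the members lay near the background.

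The arrays did not move the members alike. On array 1 the ratio was above 0 for 7 of the 29 genes and the median was −0.25, on array 2 for 14 with a median of −0.01, and on array 3 for 18 with a median of 0.16. Over all named genes 37.9%, 52.1% and 51.3% were above 0 on arrays 1 to 3, with medians of −0.12, 0.02 and 0.02. A ratio below 0 on array 1 and above 0 on array 3 was the pattern of 15 members, 51.7% of them, beside 30.1% of named genes. That group takes in both recognition genes, 4 of the 8 Toll pathway genes, 3 of the 5 phagocytosis genes, 4 of the 8 serpins, BomBc2 and TotB. This pattern follows the member medians of the same arrays, so its count is not a separate result. The median of the surrounding 100 spots in spot order was also subtracted. BomBc2, PGRP-LE and Spn77Ba then stood above 0 on array 1, at 0.05, 0.05 and 0.12. NimC1 was then below 0 on array 3, at −0.11, and the other genes of the group kept the pattern. The share of named genes after that step is not given here. Across the 29 genes, which share arrays and are not independent replicates, Spearman's rho of arrays 1 and 2 was 0.32, that of arrays 1 and 3 was −0.07 and that of arrays 2 and 3 was 0.34. For all named genes the same values were 0.08, 0.12 and 0.08.

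The Toll pathway held the member with the highest mean. The gene nec (gene ID 45908) encodes Necrotic, a serpin secreted into the haemolymph that restrains the Persephone branch upstream of Toll, and flies without it activate Toll without infection. Its log2 ratio was 0.40 on array 1, 0.46 on array 2 and 1.23 on array 3. All 3 values were above 0, and array 3 stood well above the other arrays. The mean was 0.70 ± 0.46 (SD, n = 3), with a 95% interval of 0.08 to 1.31, or 1.06-fold to 2.49-fold, an unadjusted limma p of 0.0317 and an adjusted p of 0.853. Of 6793 named genes 56 had a higher mean, 0.824% of them. Each of its 6 spot values was above 0, from 0.21 to 1.52, and nec was the single member with all its spots on one side of 0 on every array. This makes up 3.45% of the members, where 3.64% of named genes had every spot above 0 and 4.37% had every spot below. Without array 3 the mean was 0.43.

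Below nec in the cascade the ratios pointed in different directions. The gene spz, for the ligand Spätzle, stood at 0.70, 0.11 and −0.48 on arrays 1 to 3, so the arrays disagreed in sign and the mean was 0.11 ± 0.59 (SD, n = 3). The receptor gene Tl had a mean of −0.19 ± 0.32 and Toll-7, which encodes a related receptor, one of −0.11 ± 0.86 (SD, n = 3). Toll-7 ranged from −0.83 on array 1 to 0.84 on array 3, the widest range of the pathway. The adaptor gene tub (gene ID 40554) was at −0.54, −0.26 and −0.18, below 0 on all arrays, with a mean of −0.33 ± 0.19 (SD, n = 3) and a limma adjusted p of 0.862. Its spots did not hold together, since on array 2 they stood at −0.90 and 0.37. The kinase gene pll was at −0.83, 0.01 and −0.56, with a mean of −0.46 ± 0.43 (SD, n = 3) and a limma adjusted p of 0.853. Both NF-κB genes stood near 0, dl at 0.03 ± 0.25 and Dif at 0.10 ± 0.33 (SD, n = 3). On arrays 2 and 3 nec was above the other 7 genes of the pathway. On array 1 it was above 6 of them, with spz above it. Differences between these genes were not tested.

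Recognition was represented by a negative regulator and a sensor of the Imd pathway. PGRP-LB encodes an amidase that degrades peptidoglycan and dampens Imd signalling, and PGRP-LE encodes a receptor for peptidoglycan that activates it. PGRP-LB was at −0.25, 0.50 and 0.56 on arrays 1 to 3, with a mean of 0.27 ± 0.45 (SD, n = 3) and a limma adjusted p of 0.875. Array 1 went against the other arrays. PGRP-LE stood at −0.01, −0.01 and 0.23, with a mean of 0.07 ± 0.14 (SD, n = 3). A pair of spots shared by PGRP-SC1a and PGRP-SC1b, which have several symbols and are no members, had a mean of 0.10 ± 0.38 (SD, n = 3).

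Of the 4 secreted effectors of Toll signalling 0 passed the test, and 3 of the 4 means were below 0. Drs encodes the antifungal peptide Drosomycin, the usual readout of Toll activity in the fat body. It stood at 0.14, −0.39 and −0.39 on arrays 1 to 3, with a mean of −0.21 ± 0.31 (SD, n = 3) and a limma adjusted p of 0.889. The Bomanins are short secreted peptides made downstream of Toll. BomT3 was at −0.07, −0.45 and −0.18, below 0 on all arrays, with a mean of −0.23 ± 0.19 (SD, n = 3), though 1 of its 6 spot values was above 0. BomT2 and BomBc2 had means of −0.07 ± 0.29 and 0.03 ± 0.26 (SD, n = 3). The 4 effectors thus had means between −0.23 and 0.03, and 95% intervals that all crossed 0, from −0.78 to 0.35 for Drs.

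The opsonin and phagocytosis genes covered the widest range of means among the role groups, and the lowest mean of all members was here. NimC4 (gene ID 34824), also known as simu, encodes a Nimrod receptor that binds apoptotic cells on glia and macrophages. Its log2 ratio was −1.73 on array 1, −0.73 on array 2 and −0.11 on array 3. The sign was shared and the size was not, since the arrays covered a range of over 1.5 units. The mean was −0.86 ± 0.81 (SD, n = 3), with a 95% interval of −1.64 to −0.07, an unadjusted limma p of 0.0367 and an adjusted p of 0.853. Of 6793 named genes 1.63% had a lower mean. On array 3 its spots were at 0.45 and −0.68, so that 5 of its 6 spot values were below 0. Without array 1 the mean was −0.42.

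NimB4 (gene ID 34814), which encodes a secreted Nimrod protein that binds apoptotic cells, went the other way. It was at 0.14, 0.52 and 0.37 on arrays 1 to 3, above 0 on all of them, with a mean of 0.34 ± 0.19 (SD, n = 3) and a limma adjusted p of 0.859. A single spot value, −0.0120 on array 1, lay below 0. NimC1, a phagocytosis receptor of plasmatocytes, had a mean of −0.23 ± 0.26 and NimC3, a further Nimrod gene, one of 0.16 ± 0.24 (SD, n = 3). Tep4, which encodes a thioester protein related to complement factors, was at −0.18, 0.34 and 0.71, with a mean of 0.29 ± 0.44 (SD, n = 3). The 4 Nimrod genes therefore did not share a direction.

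The 8 serpin genes outside nec had means from −0.52 to 0.37, with 5 above 0 and 3 below. Spn42De (gene ID 35602) had the lowest mean and was below 0 on all arrays, at −0.74, −0.53 and −0.30. The spread was small beside the mean, −0.52 ± 0.22 (SD, n = 3), with a 95% interval of −1.06 to 0.02, an unadjusted limma p of 0.0560 and an adjusted p of 0.853. Of its 6 spot values 5 were below 0, and 1 spot on array 3 stood at 0.24. Spn55B stood highest, at 0.84, 0.45 and −0.16, with a mean of 0.37 ± 0.50 (SD, n = 3) and a limma adjusted p of 0.862. Its spots agreed within 0.112 on each array, so that its spread lay between the arrays and not between the spots. Spn42Dc was likewise highest on array 1, at 0.93, 0.11 and −0.46, and its mean was 0.19 ± 0.70 (SD, n = 3).

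Spn100A was the reverse of these, at −1.19, 0.10 and 0.33 on arrays 1 to 3, with a mean of −0.25 ± 0.82 (SD, n = 3). Without array 1 its mean was 0.21. Spn77Ba, which encodes an inhibitor of melanisation in the tracheae, had a mean of −0.14 ± 0.22 (SD, n = 3). Spn38F had a mean of 0.0009 ± 0.62, Spn88Eb one of 0.06 ± 0.53 and Spn47C one of 0.10 ± 0.41 (SD, n = 3). For 7 of the 8 serpins the sign differed between arrays, Spn42De being the exception.

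Turandot transcripts are known from heat, dehydration and infection, where they accumulate over hours through JAK/STAT and MAP kinase signalling. The 2 that were measured had means below 0. TotF (gene ID 117461) was at −0.10, −0.35 and −0.95 on arrays 1 to 3, below 0 throughout and lowest on array 3. Its mean was −0.47 ± 0.44 (SD, n = 3), or 1.39-fold lower, with a 95% interval of −1.08 to 0.14 and a limma adjusted p of 0.853. The low value on array 3 came from 1 of its spots, at −1.76, while the other stood at −0.15. Without array 3 the mean was −0.23. With the median of the surrounding 100 spots in spot order subtracted the mean of TotF was −0.45. With that of 25 spots, a window added after seeing the data, it was −0.19. Spot order stands in for position here, because the array layout was not used. TotB (gene ID 42474) was at −0.17, −0.25 and 0.10, with a mean of −0.11 ± 0.18 (SD, n = 3), a 95% interval of −0.64 to 0.43 and a limma adjusted p of 0.938. The upper ends of these intervals lie at 1.10-fold for TotF and 1.34-fold for TotB before adjustment.

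**Figure D2:**
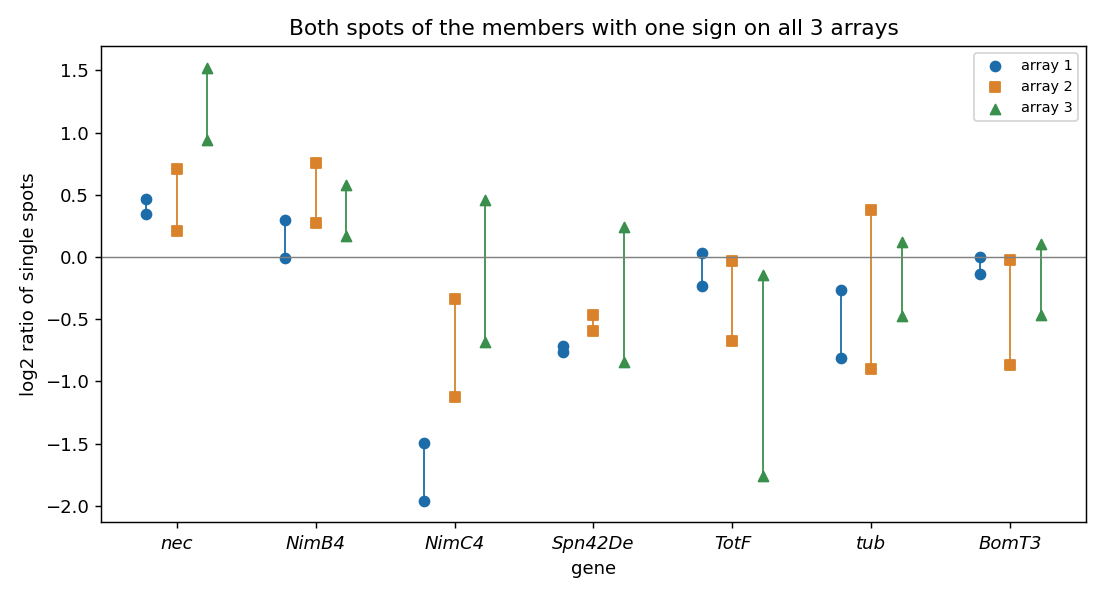
Log2 ratio of single spots (y axis) for the 7 genes with one sign on all 3 arrays (x axis), with the 2 spots of a gene on an array joined by a line and arrays 1 to 3 shown as circles, squares and triangles. All 6 points of nec lie above 0, while each of the other 6 genes has at least 1 spot across the line, and TotF on array 3 spans −1.76 to −0.15.

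The agreement between spots of a gene bears on these values. Spots of 14 members, 48.3% of them, lay over 1 log2 unit apart on at least 1 array, beside 30.7% of named genes. The median gap over the members was 0.27, 0.47 and 0.59 on arrays 1 to 3, and over all named genes 0.36, 0.38 and 0.44. Of the 7 genes with one sign throughout, NimC4, Spn42De, TotF and tub had such a gap, and nec, NimB4 and BomT3 did not. The largest gap, 1.65, was at NimC1 on array 3. Whether cDNA spots of similar family members also bound each other's transcripts was not tested.

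Some members are neighbours in the RefSeq annotation of Release 6. NimB4, NimC1, NimC3 and NimC4 lie in order along chromosome arm 2L, with 2, 5 and 3 protein-coding genes between successive members. Their means alternated in sign, at 0.34, −0.23, 0.16 and −0.86. Dif and dl, with 2 coding genes between them on 2L, stood at 0.10 and 0.03. Spn42Dc and Spn42De, with 1 coding gene between them on 2R, stood at 0.19 and −0.52, and differed in sign on arrays 1 and 2. BomBc2 and BomT2, with 2 coding genes between them on 2R, stood at 0.03 and −0.07. The means thus shared a sign for Dif and dl, which also had the same sign as each other on every array, and not for the other clusters.

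**Figure D3:**
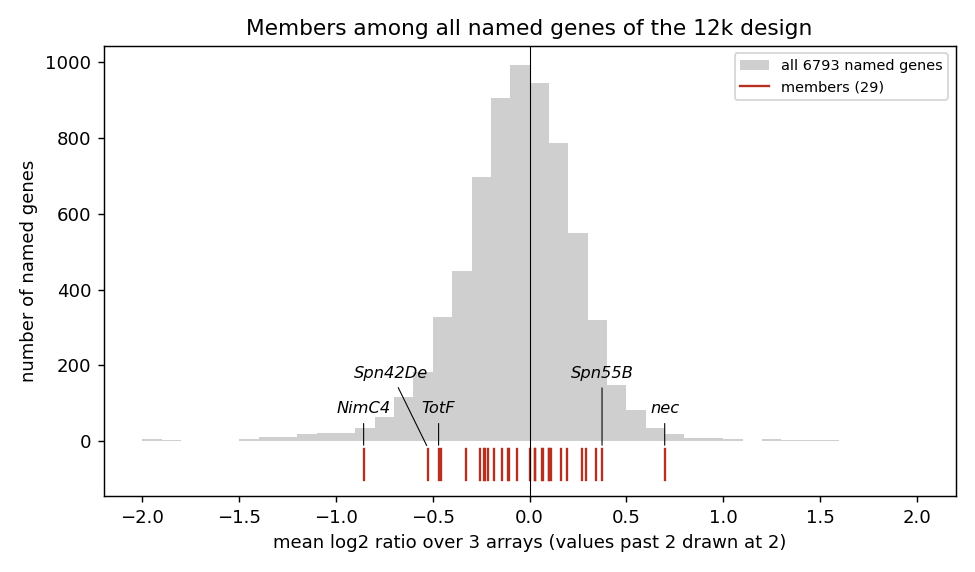
Mean log2 ratio over 3 arrays (x axis) for all 6793 named genes, as counts per bin (grey, y axis), and for the 29 members (red ticks under the histogram). The members spread over the middle of the distribution, with nec at 0.70 and NimC4 at −0.86 towards its ends.

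Partners of these pathways outside the rule were read from 8 lists of 116 entries, of which 54 were measured. In the limma fit 0 had an adjusted p under 0.05, 4 had an unadjusted p under 0.05, 6 were above 0 on all arrays and 4 were below. These are 7.41%, 11.1% and 7.41% of the partners, beside 3.49%, 12.5% and 16.9% of named genes. The gene drpr encodes the engulfment receptor Draper, a relative of the Nimrods that clears apoptotic cells after the step in which NimC4 acts. It stood at −2.85, −1.62 and −1.33 on arrays 1 to 3, with a mean of −1.93 ± 0.81 (SD, n = 3). Like NimC4, it was below 0 on all arrays and lowest on array 1, the array with the lowest median over all named genes, −0.12. Whether that median bears on these values was not tested. With arrays centred on their medians the mean of NimC4 was −0.84, beside −0.86 as deposited. The Fos gene kay, of the JNK branch, had a mean of 0.72 ± 0.37 and grnd, which encodes a TNF receptor, one of −0.61 ± 0.14 (SD, n = 3). Hrs, an endosomal sorting gene used in Toll signalling, had a mean of 0.65 ± 0.50 (SD, n = 3). Gprk2, a kinase gene of the Toll list, had one of −1.40 ± 2.01 (SD, n = 3), set by −3.72 on array 1 beside −0.15 and −0.32. All 5 of these had limma adjusted p of 0.853.

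By list, 13 Toll partners had a median mean of −0.16, with 2 above 0 and 2 below on all arrays, beside 12.5% and 16.9% of named genes. The 12 Imd partners had a median of 0.03, with 2 above on all arrays and 0 below. Of the inhibitor genes among them pirk stood at 0.17, casp at −0.07, CYLD at −0.0049 and trbd at −0.25. The processing protease gene SPE, which cuts Spätzle, stood at 0.40 ± 0.32 and psh, the protease that nec restrains, at 0.27 ± 0.29 (SD, n = 3). SPE was above 0 on all arrays and psh was at −0.05 on array 1. The further protease and protease-like genes of the Toll list had means below 0. These were ea at −0.36, below 0 on all arrays, grass at −0.19, spirit at −0.16 and sphe at −0.16. The 10 melanisation genes had a median of −0.0058, the 7 phagocytosis genes one of −0.15, the 5 JNK genes one of −0.17, the 3 JAK/STAT genes one of −0.13 and the 3 stress kinase and foxo genes one of −0.14. The single lysozyme gene measured, LysE, stood at −0.30.

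A ratio gives no level, so whether markers of another sex or tissue were present in both channels could not be read from these values. Of the haemocyte list 9 of 13 genes were measured, with medians of −0.18, −0.27 and −0.06 on arrays 1 to 3. Means were below 0 for 8 of the 9, NimC1 being one of them, beside 3869 of 6793 for all named genes. Only 2 of the 9 were below 0 on all arrays, where 16.9% of named genes were. Of the fat body list 7 of 12 were measured, with medians of −0.14, 0.12 and 0.23. The testis list, with 4 of 10 measured, had medians of −0.28, −0.09 and 0.39, and the accessory gland list, with 4 of 13, had 0.07, 0.19 and 0.08. The fat body and testis medians were below 0 on array 1 and above 0 on array 3. So were those of the members, of the Imd partners, and of the melanisation and phagocytosis lists. All named genes had medians of −0.12 and 0.02 on these arrays. All 9 genes of the female list were measured, with medians of −0.88, −0.45 and −0.10 on arrays 1 to 3. On all arrays 5 of them were below 0, beside 16.9% of named genes. The means of 2 were above 0, fs(1)N at 0.25 and swa at 0.16, and otu and yl differed in sign between arrays. Yp2 stood at −2.06, −0.25 and −0.07. The yolk protein gene Yp1 was at −4.22, −2.32 and −1.40, the lowest mean of all 6793 named genes, and the oocyte gene dhd at −2.60, −2.78 and −1.75. In samples labelled as males, both of these female transcripts were thus far below 0 on every array, though 0 genes of the list passed the limma test. Yp1, like NimC4 and drpr, was lowest on array 1, where the median of all named genes was lowest too. A link between that median and the values of these genes was not tested. The part of these cell types in the members' ratios was not tested.

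On the pilot array 7 of the 29 genes were measured. There the conventions for the direction conflict, and no replicate exists. The pilot's values are therefore given as deposited, less the median of 0.40 of that array, and an opposite direction would turn every sign. TotF stood at 0.87, Tep4 at 1.11 and Dif at 0.81, against 12k means of −0.47, 0.29 and 0.10. Toll-7 was at −0.77, Spn38F at −0.46 and NimC1 at −0.10, against −0.11, 0.0009 and −0.23. Spn42Dc stood at 0.14, against 0.19, as the mean of 4 spots in pairs that disagreed, at −0.61 and −0.64 and at 1.00 and 0.82. With the sign as deposited TotF was opposite to its 12k mean, and with the sign turned Tep4, Dif, Toll-7, NimC1 and Spn42Dc were, while Spn38F had a 12k mean too near 0 to have a direction.

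**Figure D4:**
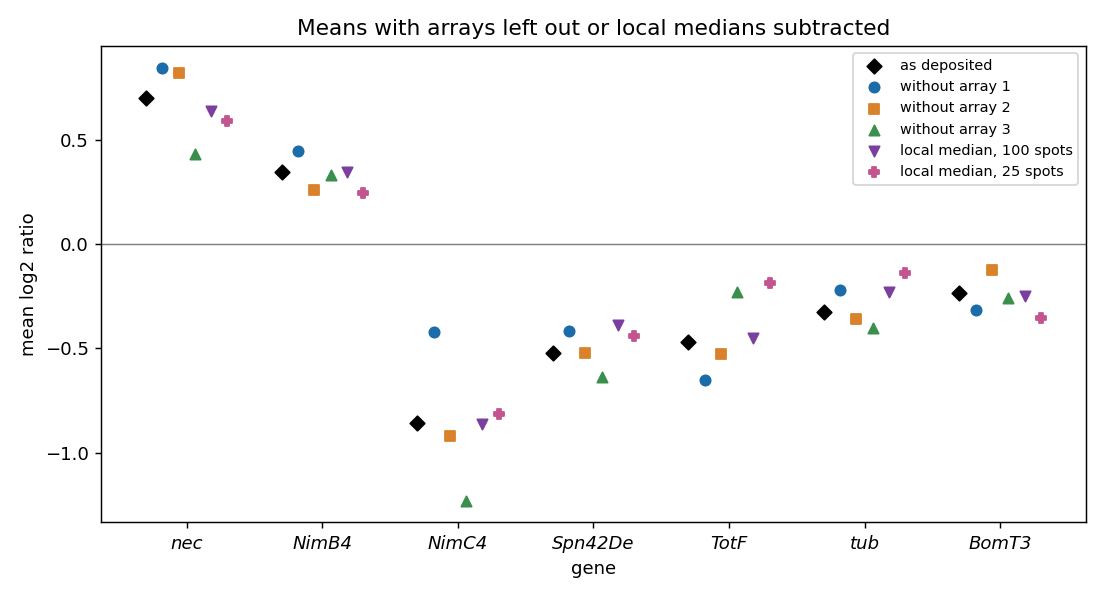
Mean log2 ratio (y axis) of the 7 genes with one sign on all 3 arrays (x axis) as deposited (diamond), with 1 array left out (circle, square, triangle) and with the median of the surrounding 100 or 25 spots in spot order subtracted (inverted triangle, plus). With an array left out the mean of these genes cannot change its side of 0, since they were chosen for one sign on all arrays, and with local medians subtracted none did. NimC4 runs from −1.23 to −0.42 and nec from 0.43 to 0.84.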

How the data were processed

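RNA of cold-shocked and untreated whole males was compared on 2-colour cDNA arrays, 3 of the 12k design and 1 pilot of the 7k design. The deposited values are log ratios of the channels, read here as log2, 1 per spot, which the authors derived from normalized data, per the labels. How the images were read, corrected for background, normalized and filtered is not given in the sources used here. No source names the base of the logarithm, and it was taken as log2, because values reached −14.57 while the natural log of a 16-bit range is 11.09. Without intensities of the channels, which were not used here, no spot was set against background, and the number of arrays limits the precision.

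Spots were named through the platform annotation, with symbols updated by gene identifier from the RefSeq table of Release 6, which held all 64 spots of the members. Of 27648 spots, 15116 had 1 symbol, 102 had several and 12430 had none. Spots of a gene were averaged within an array and other spots were kept alone, which gave 19325 features. A two-sided limma test (lmFit, eBayes; limma 3.58.1, R 4.3.3) set the mean of the 3 arrays against 0. Benjamini-Hochberg adjustment ran over all features, at a threshold of 0.05. In simulated data of 19325 features with 200 changed, this test recovered 0% of 2-fold, 95% of 4-fold and 98% of 8-fold changes. The simulated noise was unrelated between features and was drawn around the median SD of the features. The shares recovered depend on that noise and on the number of changed features. In the deposited data dhd, with a mean of −2.38, and Yp1, with one of −2.64, had a limma adjusted p of 0.853.

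The members and lists were chosen with earlier results of these data known. Values on all arrays are given for nec, the Turandot genes, members with one sign on all arrays and the member with the largest absolute mean in each role group. Of the partner lists, genes with one sign and an absolute mean over 0.58 are named. Values given for further members serve to describe each role group and were chosen after they were seen. The alternatives were subtraction of a local median over the surrounding 100 spots in spot order (the array layout was not used, and a window over array positions could give other values), centring and scaling of arrays, the median over spots, named genes only, array weights, and each array left out. A window of 25 spots was added after seeing the data.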

Additional observations from a re-analysis of the deposited data

How the results depend on the processing

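With 3 arrays, an exact sign test could not go below 0.25. Limma's p-values and intervals do not rest on the spread between the 3 pairs alone. They draw it towards the spread of all features, with 4.99 prior beside 2 residual degrees of freedom. The intervals of nec and NimC4 are thereby narrower than their own SD alone would give. The count of features past limma's test was 0 under all 10 alternatives, with the smallest limma adjusted p between 0.184 (named genes only) and 0.954 (without replicate 3), and the count of members was 0 under all 9 run for it, with a smallest from 0.768 to 0.954. At an unadjusted p of 0.05 there were 924 features and 2 members. The 2 members above 0 on all arrays became 4 with local medians over 100 or 25 spots subtracted and 3 to 9 without one replicate, and the 5 below became 6 to 13 without one replicate, where 2 arrays had to share a sign. The median of the member means stayed within −0.13 to 0.08. Of 29 members 16 kept the direction of their mean under all 8 alternatives. Among them are the 7 genes with one sign on all arrays, whose mean cannot turn when an array is left out. Turned means outside the omission of arrays were BomBc2 at −0.0068 with the median over spots, Spn38F at −0.0256 with scaled arrays, Spn100A at 0.0571 and 0.0326 with local medians over 100 and 25 spots, and TotB at 0.0050 and dl at −0.0800 with 25. Without one replicate the means ran from −0.12 to 0.13 for BomBc2, −0.22 to 0.0606 for BomT2, −0.0483 to 0.27 for Dif, −0.0118 to 0.11 for PGRP-LE, −0.55 to 0.21 for Spn100A, −0.35 to 0.21 for Spn38F, −0.18 to 0.52 for Spn42Dc, −0.0967 to 0.31 for Spn47C, −0.13 to 0.36 for Spn88Eb, −0.59 to 0.25 for Toll-7, −0.0695 to 0.17 for dl and −0.19 to 0.41 for spz. The cause of these turns was not tested. The within-array ratios tested are themselves paired. No analysis paired the 12k arrays with the pilot array or tested them against it.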
